A study of Mus musculus with 5 samples.

Results

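Pericytes are the contractile cells that wrap capillaries, and 10 genes that mark them were followed through 5 single-cell RNA libraries of adult mouse heart. The genes were chosen by name: Rgs5, Rgs4, Kcnj8, Abcc9, Notch3, Vtn, Cspg4, Higd1b, Ndufa4l2 and Cox4i2, out of 17902 genes listed in at least 1 library. A cell was called a pericyte if at least 3 of Kcnj8, Vtn, Abcc9 and Higd1b had a UMI (unique molecular identifier, 1 per captured transcript) in it. That rule found 133 of 10961 cells. Because it used these 4 genes, their height in pericytes is a matter of construction. Their low level in classes that leave pericytes out is partly so as well. The other 6 genes played no part in it. Notch3 was not listed in cKit+/DDR2- replicate 1 and was taken as 0 there, while the other 9 genes were listed in every library.

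The cells were cardiac interstitial cells, freed with collagenase, cleared of cardiomyocytes and sorted by flow cytometry on surface cKit (a receptor tyrosine kinase of blood and some endothelial cells) and DDR2 (a collagen receptor of fibroblasts). Double-positive cells were further parted by CD45, the phosphatase common to leukocytes. The sorts were cKit+/DDR2+/CD45+ (1 library, 3898 cells), cKit+/DDR2+/CD45- (1 library, 1327 cells), cKit+/DDR2- (2 libraries, 436 cells in replicate 1 and 3020 in replicate 2) and cKit-/DDR2+ (1 library, 2280 cells). The labels used here name no genotype, strain, sex or treatment and do not say how many animals were pooled. Except in cKit+/DDR2-, each sort is 1 library, so sort and library cannot be told apart, differences were not tested for significance and carry no p-value. Intervals are 95% and cover counting error only.

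Pericytes share the capillary basement membrane with endothelial cells and set the width and stability of the vessel. Their tone depends on an ATP-sensitive potassium channel, built from the pore Kcnj8 and the sulfonylurea receptor Abcc9, and on G-protein signals that regulators such as Rgs5 and Rgs4 cut short. Notch3 is the receptor by which mural cells, the family of pericytes and smooth muscle cells, read ligands on the endothelium. Vtn encodes the adhesive protein vitronectin and Cspg4 a surface proteoglycan long used to stain pericytes. Higd1b, Ndufa4l2 and Cox4i2 encode mitochondrial proteins, each with a widely expressed paralogue (Higd1a, Ndufa4 and Cox4i1).

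The members include 2 pairs of neighbours (GRCm38, GENCODE M21). Rgs5 (chr1:169655501-169695813, plus strand) is followed by Rgs4 (chr1:169741477-169747642, minus strand) after a gap of 45.7 kb. Kcnj8 (chr6:142564837-142571614, minus strand) and Abcc9 (chr6:142587862-142702315, minus strand) are 16.2 kb apart, and neither pair has a coding gene between its members. Cox4i2 is on chromosome 2, Cspg4 on 9, Ndufa4l2 on 10, Vtn and Higd1b on 11 and Notch3 on 17. Abcc9, Notch3 and Ndufa4l2 each overlap 1 gene on the other strand (5330439B14Rik, Gm17276 and Shmt2). RefSeq promoter windows (GRCm38.p6, 250 bases before to 50 after the start) were matched for 7 of the 10 members, all but Higd1b, Ndufa4l2 and Cox4i2. Those of Rgs5, Kcnj8 and Abcc9 are shown because their traces part ways within the endothelium. Capitals mark GATAA (the letters read by GATA factors) or TGGGAA (those read by the Notch partner RBPJ), on either strand.
Rgs5 (chr1:169655251-169655550, plus strand): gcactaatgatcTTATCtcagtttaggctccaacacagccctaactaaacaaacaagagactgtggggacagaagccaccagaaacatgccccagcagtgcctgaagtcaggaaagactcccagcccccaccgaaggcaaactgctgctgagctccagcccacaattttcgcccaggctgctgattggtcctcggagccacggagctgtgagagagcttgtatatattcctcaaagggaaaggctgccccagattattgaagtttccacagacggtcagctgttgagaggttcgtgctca
Kcnj8 (chr6:142571565-142571864, minus strand): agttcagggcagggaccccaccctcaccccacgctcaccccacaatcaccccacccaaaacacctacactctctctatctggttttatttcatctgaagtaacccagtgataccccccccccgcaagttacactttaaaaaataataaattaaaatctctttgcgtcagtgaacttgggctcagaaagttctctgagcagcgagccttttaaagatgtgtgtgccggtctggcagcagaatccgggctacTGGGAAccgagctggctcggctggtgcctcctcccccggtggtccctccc
Abcc9 (chr6:142702225-142702524, minus strand): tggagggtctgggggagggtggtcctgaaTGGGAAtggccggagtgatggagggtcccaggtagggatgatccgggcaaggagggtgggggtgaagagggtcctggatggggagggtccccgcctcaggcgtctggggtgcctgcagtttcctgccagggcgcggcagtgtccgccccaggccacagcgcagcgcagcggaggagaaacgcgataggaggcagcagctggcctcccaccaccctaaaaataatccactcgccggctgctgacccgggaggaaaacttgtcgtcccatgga
Both channel genes had 1 match of TGGGAA, in Kcnj8 at the annotated start and in Abcc9 from 221 bases before it, and Rgs5 had 1 match of GATAA on the opposite strand. Neither ACGTG, the letters of the hypoxia-inducible factors, nor the CArG box of serum response factor was in the 3 windows. Among 32851 promoters of this length, 25.6% held TGGGAA, 25.4% GATAA, 19.6% ACGTG and 1.63% a CArG box, so these matches are a description only.

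Some features of the libraries come before the results. They held between 4047326 and 44847778 UMIs, with a median of 7529 to 10972 per cell. The ribosomal-repeat transcript Gm42418 took 10.6% of UMIs in cKit+/DDR2+/CD45- and 9.09% in cKit+/DDR2- replicate 2, against 0.980% to 1.39% in the others. Xist had 757 and 496 CPM in those 2 libraries and at most 0.0669 CPM elsewhere. cKit+/DDR2+/CD45+ and cKit+/DDR2- replicate 1 shared 190 cell barcodes, while any other pair of libraries shared 1 to 3. The shared cells had a median of 622.5 UMIs in cKit+/DDR2+/CD45+ and of 12133.5 UMIs in cKit+/DDR2- replicate 1. None was a pericyte, but 37 of the 243 endothelial cells of cKit+/DDR2+/CD45+ were among them. Without these cells its endothelial Rgs5 was 123 CPM (also 123 CPM with them) and its endothelial Abcc9 48.5 CPM (48.9 CPM with them).

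Pericytes were rare in every library and most frequent in cKit-/DDR2+. The rule found 10 cells in cKit+/DDR2+/CD45+ (0.257%, exact interval 0.123% to 0.471%) and 28 in cKit+/DDR2+/CD45- (2.11%, 1.41% to 3.04%). It found 0 of 436 cells in cKit+/DDR2- replicate 1, which allows a share of up to 0.688% by the limit of 3 counts and up to 0.843% by the exact interval, and 10 in replicate 2 (0.331%, 0.159% to 0.608%). In cKit-/DDR2+ it found 85 (3.73%, 2.99% to 4.59%). The intervals of cKit+/DDR2+/CD45- and cKit-/DDR2+ barely overlapped, and both lay above those of the other libraries. All 4 rule genes were present in 6, 17, 8 and 62 of the pericytes of cKit+/DDR2+/CD45+, cKit+/DDR2+/CD45-, cKit+/DDR2- replicate 2 and cKit-/DDR2+. Cells with 2 of the 4 genes numbered 55 in cKit-/DDR2+ and had 1921 CPM (UMIs of the gene scaled to the total UMIs of the cells) of Rgs5, against 2529 CPM in the 23 cells with exactly 3 and 7901 CPM in the 62 with 4.

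**Figure D1:**
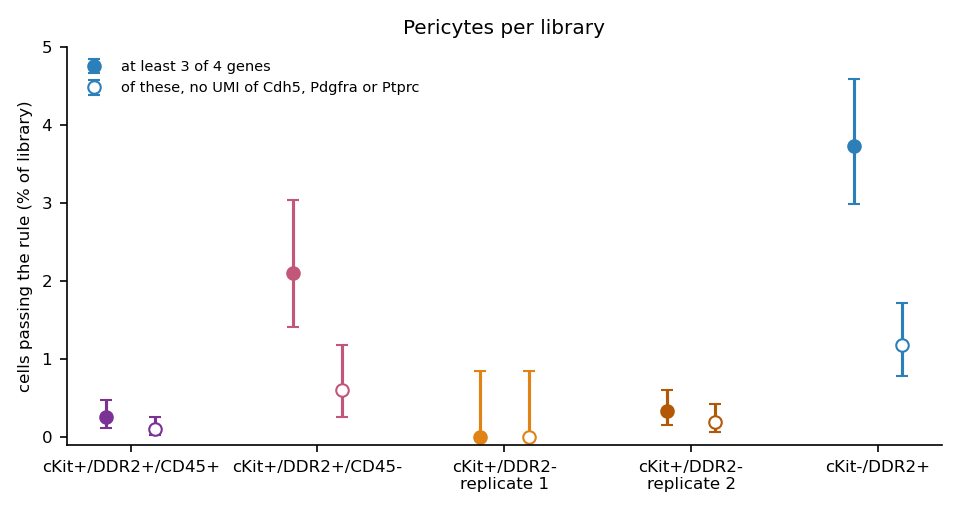
Share of cells passing the pericyte rule (y axis, percent of the library) in each library (x axis), with exact binomial 95% intervals; filled points are all such cells, open points those without a UMI of Cdh5, Pdgfra or Ptprc. cKit-/DDR2+ was highest at 3.73% and cKit+/DDR2- replicate 1 held none.

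Many of these pericytes also carried endothelial RNA. Cdh5, the cadherin of endothelial junctions, had a UMI in 5 of 10 pericytes of cKit+/DDR2+/CD45+, 20 of 28 of cKit+/DDR2+/CD45-, 4 of 10 of cKit+/DDR2- replicate 2 and 51 of 85 of cKit-/DDR2+. Over all 8 endothelial markers the summed level was 9045 CPM in pericytes against 7652 CPM in endothelial cells of cKit+/DDR2+/CD45+, and 20123 against 16214 CPM in cKit+/DDR2+/CD45-. It was 7869 against 8547 CPM in cKit+/DDR2- replicate 2 and 12585 against 21253 CPM in cKit-/DDR2+. Pericytes thus had the higher sum in 2 of the 4 libraries. Fabp4 weighed heavily in both, at 12393 CPM (cKit+/DDR2+/CD45+) and 15833 CPM (cKit+/DDR2+/CD45-) in pericytes with Cdh5. Over the 8 markers the median log2 ratio of pericytes over endothelial cells was 0.01 and -0.23 in these 2 libraries. Over all measured genes it was -0.38 and -0.03. The 7 fibroblast markers summed to 7543 CPM in pericytes, against 12788 CPM in endothelial cells of cKit-/DDR2+; in cKit+/DDR2- replicate 2 the sums were 9090 and 2406 CPM. The 3 erythroid markers summed to 412 CPM in pericytes of cKit-/DDR2+, against 5942 CPM in its endothelial cells. Cells with Cdh5 were deeper: in cKit+/DDR2+/CD45- they had a median of 9237.5 UMIs, against 3769.5 UMIs in pericytes without it. The part of these markers in the results below, and whether pericytes and endothelial cells shared a droplet, was not tested. Pericytes without Cdh5, Pdgfra and Ptprc numbered 4, 8, 6 and 27 in cKit+/DDR2+/CD45+, cKit+/DDR2+/CD45-, cKit+/DDR2- replicate 2 and cKit-/DDR2+, and their Rgs5 was 7840, 16184, 10771 and 11921 CPM. Each of these 4 levels was higher than that of all pericytes of the same library.

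The regulators of G-protein signalling led the profile. Rgs5 was the highest member in pericytes of every library that had any, at 4151 CPM (cKit+/DDR2+/CD45+), 5856 CPM (cKit+/DDR2+/CD45-), 6385 CPM (cKit+/DDR2- replicate 2), with 6504 CPM for cKit-/DDR2+. It was not used to find the cells, yet 90.0% to 100% of them had a UMI of it. Its neighbour Rgs4, which acts on the same class of G proteins, was lower, at 273, 247, 509 and 351 CPM in the same order of libraries. Rgs4 therefore stood at 6.58%, 4.21%, 7.97% and 5.39% of Rgs5. A level in CPM counts captured transcripts and is not scaled to their length. Whether capture was alike for different genes was not tested, so members are set side by side as captured UMIs only.

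The channel genes were in the middle of the order. Kcnj8 had 1249 CPM (cKit+/DDR2+/CD45+), 646 CPM (cKit+/DDR2+/CD45-), 814 CPM (cKit+/DDR2- replicate 2), with 1031 CPM for cKit-/DDR2+, and Abcc9 had 820, 1089, 1702 and 1028 CPM. The pore was below its receptor in cKit+/DDR2+/CD45- and cKit+/DDR2- replicate 2, with intervals that did not overlap, and level with it in cKit-/DDR2+. In cKit+/DDR2+/CD45+ it was the higher of the pair, with intervals (1012 to 1526 and 630.0 to 1049 CPM) that overlapped. The receptor Notch3 was low for a pericyte gene, at 169, 272, 364 and 318 CPM. Among the surface and matrix proteins, Vtn had 1132, 498, 727 and 800 CPM and Cspg4 had 52.1, 123, 145 and 171 CPM, the lowest member in every library. In cKit+/DDR2+/CD45+ the value for Cspg4 rests on 4 UMIs.

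The 3 mitochondrial genes were well above Notch3 and Cspg4. Ndufa4l2 had 885 CPM (cKit+/DDR2+/CD45+), 757 CPM (cKit+/DDR2+/CD45-), 1134 CPM (cKit+/DDR2- replicate 2), with 1185 CPM for cKit-/DDR2+. Cox4i2 had 508, 621, 829 and 1021 CPM, and Higd1b 390, 476, 553 and 608 CPM. In cKit-/DDR2+ Ndufa4l2, Kcnj8, Abcc9 and Cox4i2 lay within 1021 to 1185 CPM, and the intervals of the last 3 overlapped. The widely expressed paralogues Cox4i1 and Ndufa4 had 932 and 267 CPM in the same cells.

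**Figure D2:**
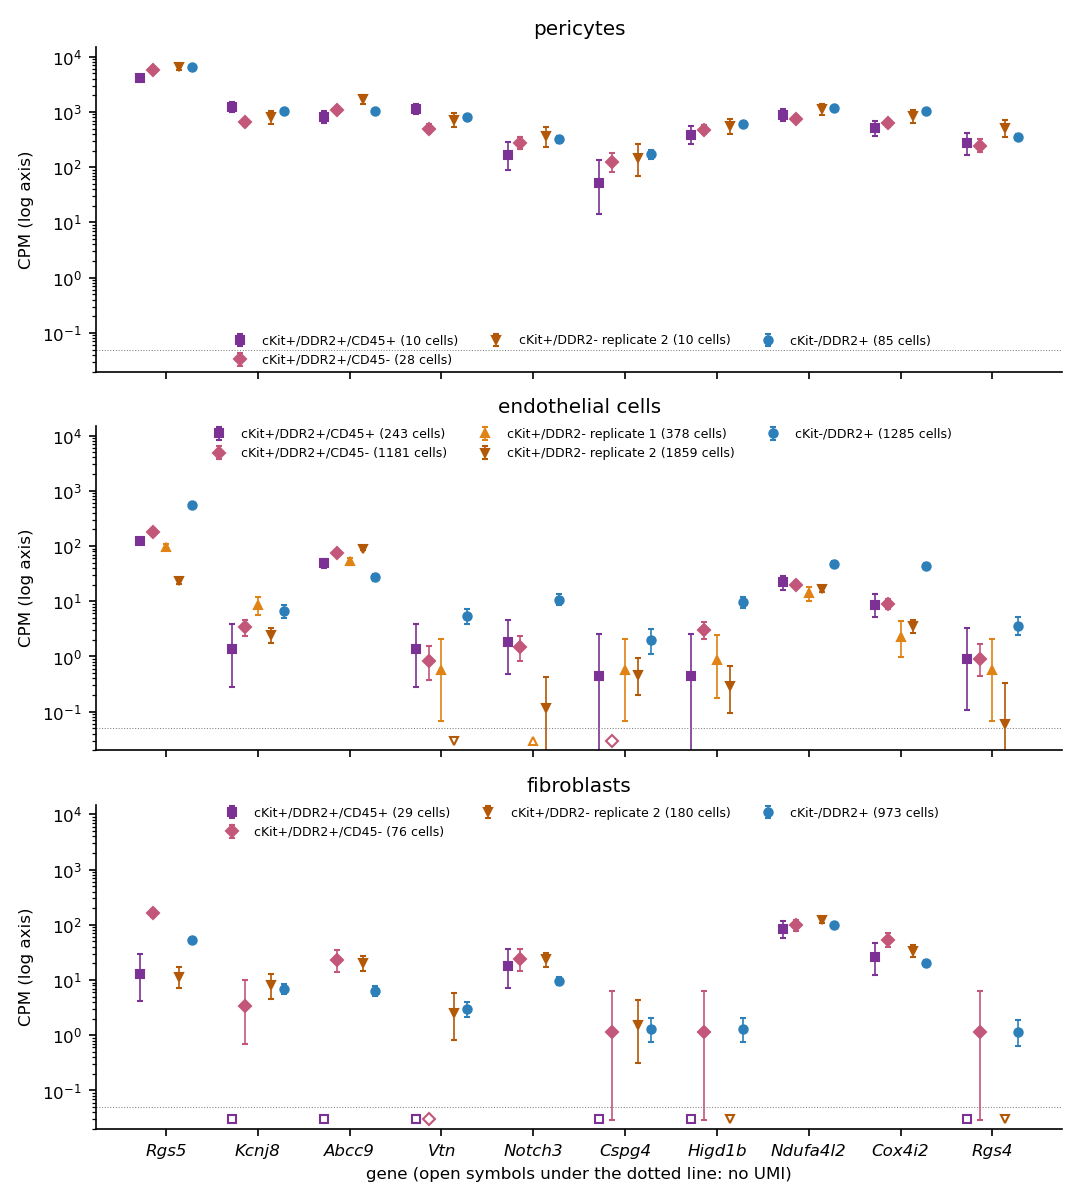
Level of each member (y axis, CPM on a log axis) in pericytes, endothelial cells and fibroblasts (panels), by library (symbols; groups under 10 cells left out), with exact Poisson 95% intervals. Rgs5 was the highest member in pericytes at 4151 to 6504 CPM, while in endothelial cells Rgs5 and Abcc9 led and in fibroblasts Ndufa4l2 was high in all 4 libraries shown.

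Few members were 2-fold or more apart between pericytes of different sorts, and most other genes were not that far apart either. A gene was taken as measured with at least 50 CPM in 1 group and, for pericytes, 20 UMIs in the higher one, and as apart at 2-fold or more on log2(CPM + 1). Between pericytes of cKit+/DDR2+/CD45- and cKit-/DDR2+, 0 of 10 members were that far apart, where 13.1% of all measured genes were. Beside that share, and with 4 of the 10 used by the rule, nothing is read from 0 of 10. The log2 differences lay between -0.72 (Cox4i2, -0.99 to -0.46) and 0.08 (Abcc9, -0.13 to 0.29). With only the cells without Cdh5, Pdgfra and Ptprc (8 in cKit+/DDR2+/CD45- and 27 in cKit-/DDR2+), Higd1b passed 2-fold, at -1.31. Between cKit+/DDR2- and cKit-/DDR2+ it was again 0 of 10 (25.2% of all genes), while with the rule loosened to 2 of 4 genes 4 members were called, among them Rgs5 at -1.04.

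Both remaining contrasts also had 10 cells on 1 side. Rgs4 was the single member of 9 measured to be called between cKit+/DDR2+/CD45- (247 CPM) and cKit+/DDR2- (509 CPM), at -1.04 (-1.68 to -0.40), where 28.7% of all genes were called. Its difference was -0.19 under the looser rule of 2 genes, and the cells without Cdh5, Pdgfra and Ptprc were too few for this contrast. Vtn was higher in pericytes of cKit+/DDR2+/CD45+ (1132 CPM) than of cKit+/DDR2+/CD45- (498 CPM), by 1.19 (0.77 to 1.60). Cspg4 was lower, by -1.23, with an interval (-3.21 to 0.27) that held 0. Those 2 of 10 members compare with 26.1% of all genes in that contrast.

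Every member was higher in pericytes than in the endothelial cells (Cdh5 above 0, not pericytes) of the same library, but by very different factors. All 10 were at least 2-fold higher in each of the 4 libraries that had pericytes, among them the 6 that the rule did not use. Notch3 and Cspg4 in cKit+/DDR2+/CD45+ (13 and 4 UMIs in pericytes) were below the 20 UMIs needed to count as measured. So was Cspg4 in cKit+/DDR2- replicate 2 (10 UMIs), while the shares of all genes below cover measured genes only. Of all measured genes, 3.54% were that much higher in cKit+/DDR2+/CD45+, 6.38% in cKit+/DDR2+/CD45-, 5.01% in cKit+/DDR2- replicate 2 and 6.64% in cKit-/DDR2+. In cKit-/DDR2+ the ratio was smallest for Rgs5, at 12.0-fold, followed by Cox4i2 at 23.1-fold and Ndufa4l2 at 24.9-fold. It was largest there for the rule genes Kcnj8, at 158-fold, and Vtn, at 147-fold. In the other 3 libraries Abcc9, also a rule gene, had the smallest ratio, at 16.8-fold in cKit+/DDR2+/CD45+, 14.7-fold in cKit+/DDR2+/CD45- and 19.2-fold in cKit+/DDR2- replicate 2.

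The 4 rule genes chose the cells, so the spread is given for the other 6, and among them for those with more than 3 endothelial UMIs. In cKit+/DDR2+/CD45+ the ratio ran from 33.8-fold (Rgs5) to 94.3-fold (Notch3), and in cKit+/DDR2+/CD45- from 33.4-fold (Rgs5) to 270.5-fold (Rgs4, 10 endothelial UMIs). In cKit+/DDR2- replicate 2 it ran from 68.3-fold (Ndufa4l2) to 309.6-fold (Cspg4, 8 endothelial UMIs), and in cKit-/DDR2+ from 12.0-fold (Rgs5) to 98.0-fold (Rgs4). The part of free RNA in these ratios was not tested.

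**Figure D3:**
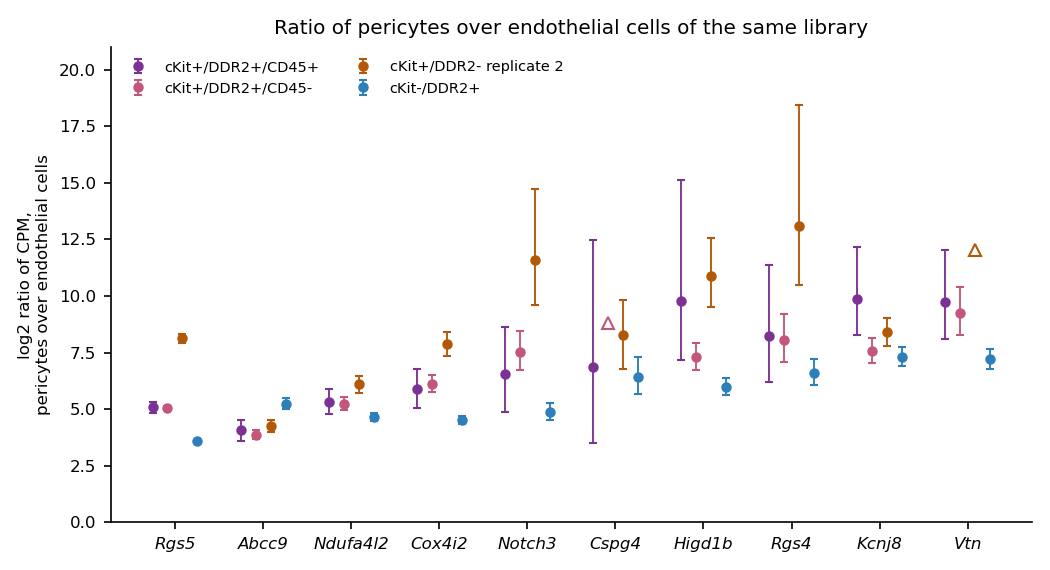
Log2 ratio of CPM, pericytes over endothelial cells of the same library (y axis), for each member (x axis) and library (colours), with exact conditional 95% intervals; open triangles are lower bounds set by 3 counts where endothelial cells had no UMI. The ratio differed between members: Abcc9, a gene of the pericyte rule, lay lowest in the 3 cKit+ libraries and Rgs5 in cKit-/DDR2+ (3.59).

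In endothelial cells Rgs5 was the highest member of every library but cKit+/DDR2- replicate 2, where Abcc9 was. Rgs5 had 123 CPM (cKit+/DDR2+/CD45+), 176 CPM (cKit+/DDR2+/CD45-), 96.0 and 22.8 CPM (cKit+/DDR2- replicates 1 and 2) and 542 CPM (cKit-/DDR2+). Abcc9 was highest where Rgs5 was lowest and lowest where Rgs5 was highest, with 48.9, 74.2, 52.9, 88.7 and 27.0 CPM in the same order. A UMI of Rgs5 was in 16.5%, 20.5%, 15.6%, 4.09% and 47.5% of endothelial cells, and in 12.8%, 14.1%, 9.43%, 2.88% and 35.2% after each cell was thinned to 2000 UMIs. The library with the most Rgs5 in its endothelium was also that with the most pericytes. The 2 cKit+/DDR2- libraries cannot be ranked by pericytes. The 0 of 436 cells in replicate 1 allow a share of up to 0.843%, above the 0.331% of replicate 2. The part of pericyte RNA in endothelial Rgs5 was not tested.

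The remaining members were low there. Ndufa4l2 had 13.8 to 47.6 CPM over the 5 libraries and Cox4i2 2.25 to 44.2 CPM, each highest in cKit-/DDR2+. Kcnj8 had 1.35 to 8.45 CPM, with its highest level in cKit+/DDR2- replicate 1. Higd1b (0.294 to 9.50 CPM), Vtn (0 to 5.43 CPM), Notch3 (0 to 10.7 CPM), Rgs4 (0.0587 to 3.58 CPM) and Cspg4 (0 to 1.97 CPM) were all highest in cKit-/DDR2+. The pericyte rule had taken cells out of this class, so low levels of the 4 rule genes are partly a matter of construction. In cKit-/DDR2+ the 51 pericytes with Cdh5 held 410 UMIs of Kcnj8, 274 of Vtn and 197 of Higd1b. The endothelial cells of that library held 53, 44 and 77. Macrophages (Csf1r and C1qa above 0, no Cdh5 or Pdgfra, not pericytes), which should lack these genes, give a background. In the 3357 macrophages of cKit+/DDR2+/CD45+ no member exceeded 4.27 CPM (Rgs5), and thinned shares were at most 0.727%. Their median was 11263 UMIs per cell, against 9831 in the endothelial cells. The classes were not filtered alike: 71 of the 243 endothelial cells of that library had Ptprc, while macrophages with Cdh5 were left out. The background may therefore be too low. Endothelial Rgs5, Abcc9, Ndufa4l2 and Cox4i2 of that library were above this background, at 123, 48.9, 21.97 and 8.52 CPM, against 4.27, 4.20, 0.791 and 1.10 CPM in macrophages, while Kcnj8, Vtn, Cspg4, Higd1b and Rgs4 rested on 1 to 3 UMIs.

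Endothelial Rgs5 was lower in both cKit+ sorts that were set against cKit-/DDR2+, and endothelial Abcc9 was higher in one of them. In cKit+/DDR2+/CD45- against cKit-/DDR2+, Rgs5 differed by -1.62 (-1.70 to -1.55) and Abcc9 by 1.43 (1.24 to 1.68) on the log2 scale, and these were the only 2 members measured. Of all genes, 11.4% were called there. In cKit+/DDR2- against cKit-/DDR2+, Rgs5 differed by -3.17 (-4.51 and -2.48 with the single libraries), with the same 11.4% of genes called. Abcc9 differed by 1.36 and was not called, since with replicate 1 alone it was 0.94. Between the cKit+ sorts neither gene was called, although Rgs5 differed by 1.55 for cKit+/DDR2+/CD45- against cKit+/DDR2- (0.86 with replicate 1 alone and 2.89, past 2-fold, with replicate 2 alone). Of all genes, 0.792% were called for cKit+/DDR2+/CD45- against cKit+/DDR2- and 13.5% for cKit+/DDR2+/CD45+ against cKit+/DDR2+/CD45-. The 2 cKit+/DDR2- libraries were themselves apart in Rgs5, by 2.02 (replicate 1 minus replicate 2), where 3.89% of genes were 2-fold apart.

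The traces differed by kind of endothelium. Endothelial cells were grouped into an endocardial subset (Npr3 above 0; the lining of the chambers), a lymphatic subset (Prox1 above 0) and a capillary subset (Car4 above 0, no Npr3 or Prox1). The endocardial and lymphatic subsets overlapped: 9 of 20, 86 of 163, 19 of 92, 142 of 342 and 6 of 15 lymphatic cells also had Npr3, from cKit+/DDR2+/CD45+ to cKit-/DDR2+. Their shares of UMIs therefore overlap as well. Rgs5 was highest in the capillary subset, where it had 494 CPM (cKit+/DDR2+/CD45+), 505 CPM (cKit+/DDR2+/CD45-), 476 and 250.9 CPM (cKit+/DDR2- replicates 1 and 2) and 722 CPM (cKit-/DDR2+). In the endocardial subset it had 21.2, 22.9, 7.59, 6.57 and 168 CPM. In all 5 libraries the 2 intervals were apart.

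Abcc9 had the opposite distribution. In the endocardial subset it had 119 CPM (cKit+/DDR2+/CD45+), 113 CPM (cKit+/DDR2+/CD45-), 85.5 and 113 CPM (cKit+/DDR2- replicates 1 and 2) and 87.8 CPM (cKit-/DDR2+). In the capillary subset it had 5.20, 13.1, 7.38, 10.2 and 30.3 CPM. The endocardial subset held 82.6%, 87.7%, 89.9%, 95.8% and 26.9% of the Abcc9 UMIs of all endothelial cells and 28.8%, 46.9%, 46.3%, 69.9% and 6.30% of the cells. Its pore partner and neighbour Kcnj8 did not follow it, with 0, 0.635, 2.02, 0.860 and 2.98 CPM in the same endocardial cells. Kcnj11, the other pore of such channels, had 0 UMIs in the endocardial subset of every library and was listed only in cKit-/DDR2+. In endocardial cells without a UMI of Kcnj8, Vtn or Higd1b, Abcc9 had 119, 115, 85.9, 114 and 90.9 CPM. Each of those 3 genes had at most 11 UMIs in the endocardial subset of any library. Leaving out the cells that held them could therefore hardly move the level, and nothing is read from it. In cells with Npr3 and no Prox1, Abcc9 had 114, 119.7, 86.1, 114 and 89.9 CPM, against 36.7, 17.5, 6.55, 10.4 and 11.8 CPM in cells with Prox1 and no Npr3.

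Kcnj8 itself was highest in the lymphatic subset of the cKit+ libraries. It had 12.0 CPM (cKit+/DDR2+/CD45+), 12.6 CPM (cKit+/DDR2+/CD45-) and 32.6 and 11.1 CPM (cKit+/DDR2- replicates 1 and 2), from 3, 23, 26 and 34 UMIs. The lymphatic subset gave 62.2%, 86.7% and 82.9% of endothelial Kcnj8 UMIs in the last 3 of these libraries, from 13.8%, 24.3% and 18.4% of endothelial cells. In cKit-/DDR2+ its 15 lymphatic cells had none. Cells with Prox1 and no Npr3 had 27.5, 26.3, 36.0 and 15.3 CPM of Kcnj8 in the 4 cKit+ libraries, from 3, 21, 22 and 25 UMIs. Cells with both genes had 0, 1.96, 21.4 and 6.33 CPM. Ndufa4l2 was found in the endocardial subset of every library, at 46.4, 22.1, 18.7, 19.6 and 14.9 CPM from cKit+/DDR2+/CD45+ to cKit-/DDR2+. Higd1b and Vtn, by contrast, had at most 0.506 and 1.49 CPM in the endocardial subset of any library.

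**Figure D4:**
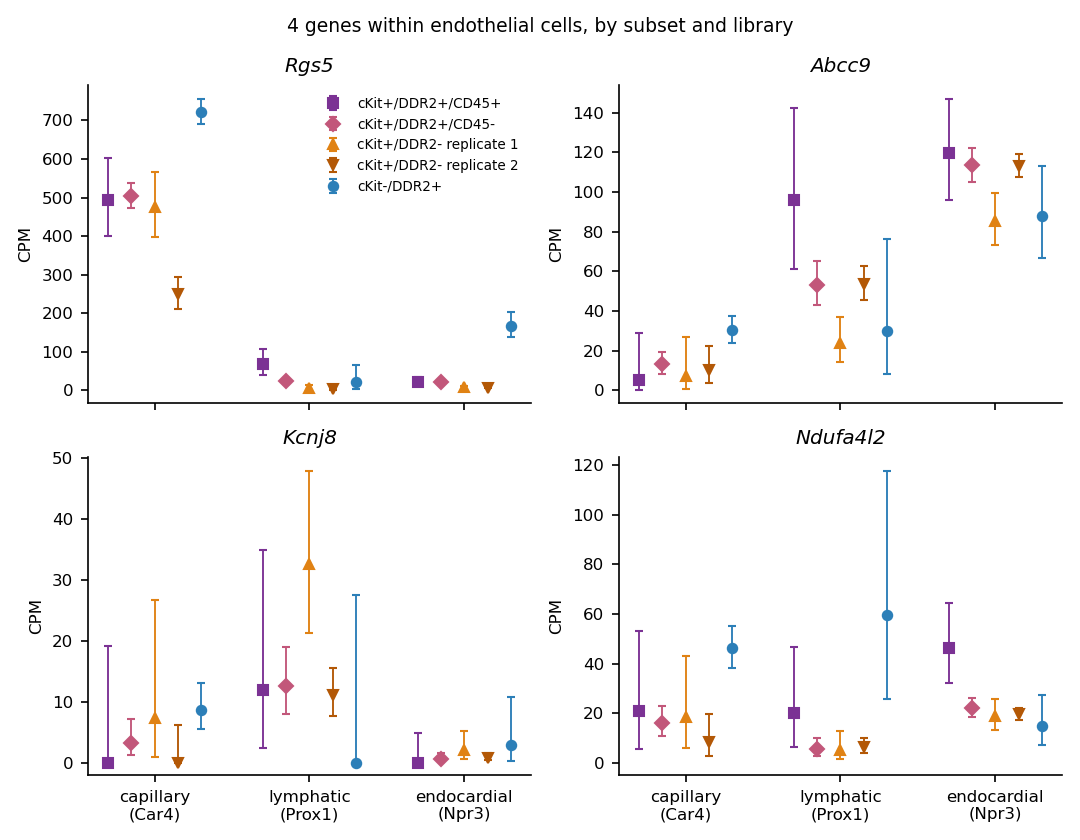
Level (y axis, CPM) of Rgs5, Abcc9, Kcnj8 and Ndufa4l2 in capillary, lymphatic and endocardial cells (x axis), by library (symbols), with exact Poisson 95% intervals. Rgs5 was highest in the capillary cells and Abcc9 in the endocardial cells of every library, and Kcnj8 stayed at or below 2.98 CPM in endocardial cells.

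The make-up of the endothelium moved with these differences between sorts. Endocardial cells were 46.9% of endothelial cells in cKit+/DDR2+/CD45- and 6.30% in cKit-/DDR2+. Within the capillary subset the Rgs5 difference between these libraries was -0.52 and not called, and within the endocardial subset the Abcc9 difference was 0.37 and not called. Abcc9 of the capillary subset went the other way, at 13.1 CPM (cKit+/DDR2+/CD45-) and 10.2 CPM (cKit+/DDR2- replicate 2) against 30.3 CPM in cKit-/DDR2+. These differences were -1.15 (-1.93 to -0.53) and -1.49 (-3.06 to -0.39), below the 50 CPM needed for a call. Rgs5 of the endocardial subset still differed, at 22.9 CPM (cKit+/DDR2+/CD45-) against 168 CPM in cKit-/DDR2+ (-2.82). In cKit+/DDR2- against cKit-/DDR2+, Rgs5 stayed lower within the capillary subset (-1.52) and within the endocardial subset (-4.39).

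Single endothelial cells rich in Rgs5 held more Cox4i2 in every library, while the other members differed between libraries. Higd1b was higher in cKit-/DDR2+ and cKit+/DDR2+/CD45- and rested on 1 or 2 UMIs elsewhere. Its intervals overlapped in cKit+/DDR2+/CD45+ and in cKit+/DDR2- replicate 1. In cKit-/DDR2+, 260 endothelial cells had 5 or more Rgs5 UMIs and 674 had none. The richer cells had 81.3 CPM of Cox4i2, against 24.7 CPM in cells without Rgs5. The same comparison gave 26.7 against 2.36 CPM for Higd1b, 32.8 against 3.30 CPM for Notch3 and 18.4 against 0.943 CPM for Vtn. In cKit+/DDR2+/CD45- Cox4i2 was 56.4 CPM in 116 cells with 5 or more Rgs5 UMIs, against 3.42 CPM in 939 cells without Rgs5, and Higd1b was 28.2 against 0.221 CPM. Abcc9 went the other way in that library, at 42.3 against 80.0 CPM, but not in cKit-/DDR2+, at 60.1 against 17.9 CPM. In the remaining libraries 17 (cKit+/DDR2+/CD45+), 26 and 27 cells (cKit+/DDR2- replicates 1 and 2) had 5 or more Rgs5 UMIs. Their Cox4i2 was 67.8, 22.6 and 53.2 CPM, against 3.73, 0.976 and 2.73 CPM in cells without Rgs5. Their Higd1b was 6.16, 4.52 and 9.68 CPM, from only 1, 1 and 2 UMIs, against 0, 0.651 and 0.0607 CPM. Their Abcc9 was 86.2, 18.1 and 43.5 CPM, against 49.0, 59.5 and 90.5 CPM, so it was higher in the first library and lower in both cKit+/DDR2- libraries. In replicate 2 Ndufa4l2 was 9.68 against 16.7 CPM, from 2 UMIs in the richer cells. In cKit-/DDR2+ the Higd1b of the richer cells compares with 608 CPM in pericytes. Endothelial cells with 3 or more members numbered 10.4% in cKit-/DDR2+, against 0.646% to 4.49% in the other libraries.

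**Figure D5:**
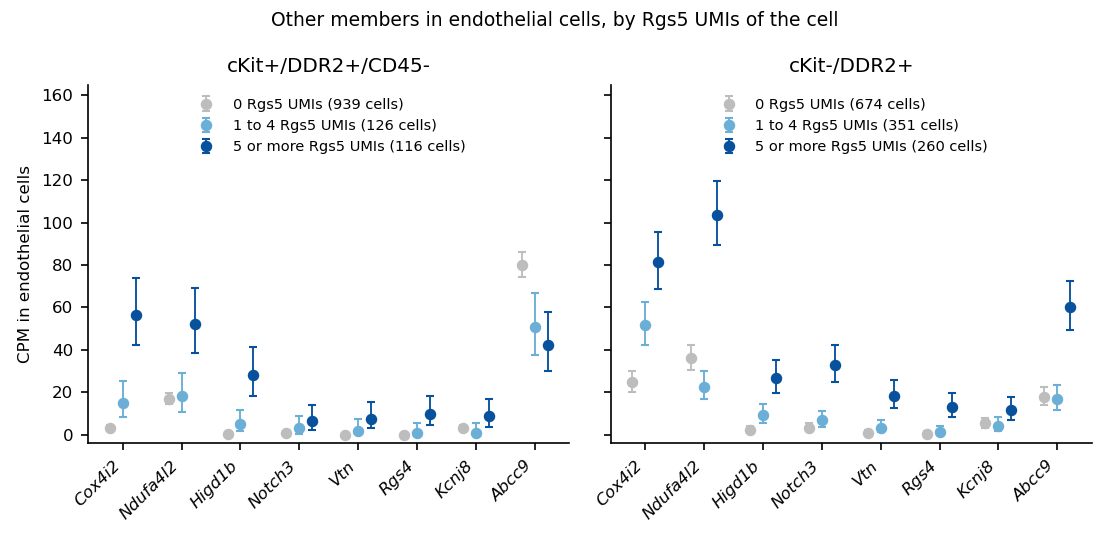
Level (y axis, CPM) of 8 other members (x axis) in endothelial cells grouped by their own Rgs5 UMIs (colours), in cKit+/DDR2+/CD45- and cKit-/DDR2+ (panels), with exact Poisson 95% intervals. Cells with 5 or more Rgs5 UMIs had more Cox4i2 and Higd1b in both libraries, and less Abcc9 than cells without Rgs5 in cKit+/DDR2+/CD45-.

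Fibroblasts (Pdgfra above 0, not pericytes) held a different set of traces. Of the 4 libraries with at least 10 fibroblasts, Ndufa4l2 led in all but cKit+/DDR2+/CD45-, where Rgs5 was higher. In that library 39 of the 76 fibroblasts also had Cdh5. Cells with both markers gave 4.11% of its Rgs5 UMIs, and fibroblasts without Cdh5 gave 0.0291%. Ndufa4l2 had 84.7 CPM in cKit+/DDR2+/CD45+ (29 cells) and 98.0 CPM in cKit+/DDR2+/CD45- (76 cells). It had 124 CPM in replicate 2 of cKit+/DDR2- (180 cells) and 99.97 CPM in cKit-/DDR2+ (973 cells). In cKit-/DDR2+, 49.3% of fibroblasts had a UMI of it, against 13.7% of endothelial cells, at 15.1% against 6.78% after thinning to 2000 UMIs. Fibroblasts there gave 49.4% of all Ndufa4l2 UMIs of the library without counting cells that also had Cdh5, against 33.4% from pericytes. Cox4i2 had 25.7, 53.6, 33.6 and 20.7 CPM in the 4 libraries and Notch3 had 18.0, 23.9, 23.5 and 9.66 CPM. Vtn (at most 2.995 CPM), Higd1b (at most 1.27 CPM) and Rgs4 (at most 1.14 CPM) were below these levels. Macrophages of cKit+/DDR2+/CD45+ had 0.144 CPM of Vtn, 0.240 CPM of Higd1b and 0.0959 CPM of Rgs4, while cKit-/DDR2+ had only 8 macrophages to set beside its fibroblasts.

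Between sorts the fibroblast levels of Ndufa4l2 were not apart. Of 3 members measured between cKit+/DDR2+/CD45- and cKit-/DDR2+, Rgs5 (162 against 53.7 CPM, 1.57) and Cox4i2 (53.6 against 20.7 CPM, 1.33, interval 0.90 to 1.82) were called, where 9.87% of all genes were. The Rgs5 difference turned to -1.498 once fibroblasts had to hold Dcn and no Cdh5 or Ptprc, while that of Cox4i2 was 2.02. Rgs5 was also called for cKit+/DDR2+/CD45- against cKit+/DDR2- (3.70, with 5.25% of genes called) and for cKit+/DDR2- against cKit-/DDR2+ (-2.13, with 3.67% called). In those stricter fibroblasts these Rgs5 differences were 0.33 and -1.82, neither of them called, and Cox4i2 differed by 1.06 in the first contrast.

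Summed over whole libraries, Rgs5 was highest in cKit-/DDR2+. In such sums, fewer cells of a type and less RNA per cell cannot be told apart. Rgs5 had 17.8 CPM (cKit+/DDR2+/CD45+), 287 CPM (cKit+/DDR2+/CD45-), 84.7 and 31.0 CPM (cKit+/DDR2- replicates 1 and 2) and 429 CPM (cKit-/DDR2+). Pericytes gave 40.0%, 40.1%, 0%, 47.9% and 48.7% of these UMIs. For Abcc9 they gave only 23.5% in cKit+/DDR2+/CD45- and 6.67% in cKit+/DDR2- replicate 2, against 70.5% in cKit-/DDR2+. Vtn came from pericytes at 89.3% to 92.1% in the 3 cKit+ libraries that held any and at 86.8% in cKit-/DDR2+. Abcc9 and Vtn are genes of the pericyte rule, so their shares from pericytes are raised by construction.

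Measured members at this level were few. In cKit+/DDR2+/CD45- against cKit-/DDR2+, Ndufa4l2 (-1.49) and Cox4i2 (-1.27) were lower among 4 measured, where 17.2% of genes were called. In cKit+/DDR2- against cKit-/DDR2+, Rgs5 (-2.87), Ndufa4l2 (-2.72) and Cox4i2 (-3.51) were lower, with 14.3% of genes called. Rgs5 and Abcc9 were lower in cKit+/DDR2+/CD45+ than in cKit+/DDR2+/CD45- (-3.94 and -3.38), a contrast of mostly macrophages with mostly endothelial cells in which 41.3% of genes were called. The single call between cKit+/DDR2+/CD45- and cKit+/DDR2- was for Rgs5, with 3.68% of genes called.

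Close relatives of the members were followed as a list. Of the 15 paralogues listed for comparison, 14 were listed in the tables and 7 were measured in cKit-/DDR2+, where 0 were 2-fold higher in pericytes than in endothelial cells (median log2 ratio -0.20, against 0.06 over all 3796 measured genes). Since 6.64% of all genes were that much higher, nothing is read from 0 of 7. Cox4i1 had 932 CPM in pericytes and 753 CPM in endothelial cells, Ndufa4 had 267 and 487 CPM, Higd1a 89.9 and 80.8 CPM, and Higd2a 123 and 127 CPM. Notch1 had 164.8 and 190 CPM, Notch4 27.0 and 51.7 CPM and Notch2 14.99 and 10.7 CPM. Rgs3 had 71.9 and 94.4 CPM, Rgs10 39.0 and 30.6 CPM, Rgs16 4.496 and 9.75 CPM and Rgs2 1.499 and 7.90 CPM. The potassium channel genes Kcnj11 and Kcnj2 and the proteoglycan gene Cspg5 had 0 CPM in these pericytes, and Abcc8 was not listed. In the endocardial subset, Notch1 reached 296 to 423 CPM, where Notch3 had at most 1.49 CPM.

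Other mural genes were higher as well. Of 18 measured in cKit-/DDR2+, 17 were at least 2-fold higher in pericytes than in endothelial cells, with a median log2 ratio of 3.67, where 6.64% of all measured genes were (median 0.06). Pdgfrb, the receptor through which endothelial cells recruit pericytes, had 827 CPM in pericytes and 26.4 CPM in endothelial cells. Steap4 had 534 and 10.1 CPM, Aspn 475 and 103 CPM and Mfge8 571 and 280 CPM. In cKit+/DDR2+/CD45- 12 of 15 measured were higher, in cKit+/DDR2+/CD45+ 6 of 6 and in cKit+/DDR2- replicate 2 9 of 9, where 6.38%, 3.54% and 5.01% of all genes were. All 5 smooth muscle genes measured in cKit-/DDR2+ were higher too, at modest levels: Myl9 184 against 10.1 CPM, Mylk 166 against 30.7 CPM, Acta2 148 against 16.5 CPM and Des 114 against 15.7 CPM. A further 9 cells of that library, not pericytes, had Myh11 and at least 3 of 5 contractile genes (8 of them with Cdh5). They had 5409 CPM of Rgs5, 415 CPM of Notch3 and 0 UMIs of Kcnj8 and Abcc9. Cells passing the pericyte rule were left out of this group, so low Kcnj8 and Abcc9 in it is partly a matter of construction.

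The lists of Notch, recruitment and hypoxia genes were mixed. In cKit-/DDR2+ 6.64% of all genes were 2-fold higher in pericytes and 4.37% lower, and with so few genes in each list the counts are a description. Of 7 Notch ligands and targets measured, Heyl (187 CPM in pericytes against 20.2 CPM in endothelial cells) and the ligand gene Jag1 (85.4 against 32.0 CPM) were higher and the ligand gene Jag2 (43.5 against 88.2 CPM) lower. Of 6 recruitment genes, Pdgfrb and S1pr3 (199 against 17.8 CPM) were higher and S1pr1 (172 against 371 CPM) and Tek (106 against 221 CPM) lower. Of 3 measured hypoxia-response genes, 0 were apart, with Ldha at 276 against 283 CPM. The endothelial markers Egfl7 (706 against 1427 CPM), Pecam1 (301 against 643 CPM) and Tie1 (102 against 246 CPM) were the 3 of 8 called lower in these pericytes.

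Over 14 class-by-library groups, the gene most like the mean of the members was Atp1b2, a sodium pump subunit (Pearson r = 0.99 across groups on log levels, out of 5230 genes). It had 132 to 221 CPM in pericytes and 1.41 to 14.3 CPM in endothelial cells. The next were Klhl23, Art3, Rasl12, Ednra (the endothelin A receptor), Serpini1, Cog7 and Aoc3, with r between 0.97 and 0.99. The groups share libraries and were formed with 4 of the members, so r is a description. Among the members themselves r was lowest for Abcc9 (0.91) and Ndufa4l2 (0.92).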

How the data were processed

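The deposited tables hold 1 value per gene and cell, the natural log (ln) of 1 plus UMIs scaled to 10000 per cell by the authors; per the submitters' processing notes, Cell Ranger, the mm10 build and Seurat 4.0.4 were used (Cell Ranger's version is not given in the sources used here). UMIs were recovered from the deposited ln values by dividing by each cell's smallest value (100% whole within 0.01). No further cell filter and no doublet caller was applied. A gene not listed in a table counted as 0. UMIs were summed per class and library and scaled to CPM, with exact Poisson, Clopper-Pearson and exact conditional ratio 95% intervals. PCR-collapsed UMIs of 1 library are not independent samples, so intervals cover counting error only. Classes need 10 cells (pericytes) or 50 (others) for comparisons. Fewer were allowed in the alternatives with stricter fibroblasts, with pericytes without Cdh5, Pdgfra and Ptprc, and with pericytes holding all 4 rule genes. Endothelial subsets of 15 to 40 cells are given as levels only. Log2 differences add 1 CPM. For cKit+/DDR2-, levels were averaged over the libraries with at least that many cells, and a call needs each of them 2-fold apart (its pericytes and fibroblasts come from replicate 2 alone). Shares were also taken after thinning cells to 2000 UMIs, leaving out shallower ones. Likeness is Pearson's r with the members' mean log level. Replicates were numbered in accession order. The scripts were tested on simulated data. Named genes are the 10 members, all paralogues, up to 4 genes per other list (highest in pericytes of cKit-/DDR2+ among those 2-fold apart) and 8 most like genes; endocardial Notch1 was added after its values were seen. Members and lists were chosen with earlier results of these data known. Alternatives were other rules, classes, totals, added CPM, averages over cells and left-out libraries. Those without shared barcodes, without rule genes in endothelial cells, within subsets and, between sorts, without other markers in pericytes were chosen after seeing the data. Python 3.11.15, numpy 2.4.6, scipy 1.17.1, pandas 2.3.3 and matplotlib 3.10.9 were used.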

Additional observations from a re-analysis of the deposited data

How the results depend on the processing

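All 10 members, measured or not, were 2-fold higher in pericytes than in endothelial cells under each alternative run for that count. The share of pericytes moved with the rule. With 2 of 4 genes it was 3.32% in cKit+/DDR2+/CD45-, 0.728% in cKit+/DDR2- replicate 2 and 6.14% in cKit-/DDR2+. With all 4 it was 1.28% in cKit+/DDR2+/CD45- and 2.72% in cKit-/DDR2+, and after thinning to 2000 UMIs 1.31% and 2.39%. Without cells with Cdh5, Pdgfra or Ptprc it was 0.103% in cKit+/DDR2+/CD45+, 0.603% in cKit+/DDR2+/CD45- and 1.18% in cKit-/DDR2+. The cause of the other changes was not tested. Members called in endothelial cells of cKit+/DDR2+/CD45- minus cKit-/DDR2+ (2 as reported) were 5 at 10 CPM, 9 with no filter, 0 in the capillary subset (Abcc9 reversed, -1.15) and 1 in the endocardial subset. For cKit+/DDR2+/CD45- minus cKit+/DDR2- (0) they were 3 with no filter and 1 in the capillary subset, and for cKit+/DDR2+/CD45+ minus cKit+/DDR2+/CD45- (0) 1 with no filter. For cKit+/DDR2- minus cKit-/DDR2+ (1) they were 4 at 10 CPM, 7 with no filter, 2 without mitochondrial genes, Gm42418 and Lars2 in the total and 2 in stricter cells. Leaving out a cKit+/DDR2- replicate gave 0 to 1 (cKit+/DDR2+/CD45- minus cKit+/DDR2-; Rgs5 2.89 without replicate 1) and 1 to 2 (cKit+/DDR2- minus cKit-/DDR2+; Abcc9 1.68 without replicate 1). In pericytes the counts became 1 without Cdh5, Pdgfra and Ptprc cells (cKit+/DDR2+/CD45- minus cKit-/DDR2+), 0 with 2 of 4 genes (cKit+/DDR2+/CD45- minus cKit+/DDR2-), and 4 with 2 and 1 with all 4 genes (cKit+/DDR2- minus cKit-/DDR2+). In stricter fibroblasts they became 1 (cKit+/DDR2+/CD45- minus cKit-/DDR2+; Rgs5 reversed, -1.498) and 0 (cKit+/DDR2- minus cKit-/DDR2+). Of 1174 recomputed values of single genes, 808 stayed within the counting interval. No paired analysis was possible because replicate numbers occur in 1 sort only and were given in accession order. Classes of 10 cells limit the depth: Cspg4 rested on 4 UMIs in pericytes of cKit+/DDR2+/CD45+.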
